A study of Mus musculus with 12 samples.

Results

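Immediate early response genes are the genes that a cell switches on first after a stimulus, and 36 of them, given by symbol, were followed here in whole mouse kidneys with and without the RNA-binding protein gene A1cf. They were chosen by matching the listed symbols to the gene names of the deposited count table, where all 36 were found among 46882 names, and 35 of them passed the filter on low counts that left 16910 genes for testing. The groups were kidneys of wild-type (WT) C57BL/6 mice and of C57BL/6 mice lacking A1cf (genotype A1cf -/-, here A1cf KO), 6 libraries each, from animals aged 6 to 8 weeks with no treatment given in the labels. Kidneys were flash frozen before RNA extraction, each library came from the kidney tissue of 1 numbered animal, and the libraries are named by those numbers. The labels do not say in which cells A1cf is lost.

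Immediate early genes are transcribed within minutes of a growth factor, stretch, osmotic or stress signal, without a need for new protein synthesis, because the factors that drive them (SRF with its ELK partners, and CREB) are already present and are switched on by phosphorylation through MAP kinases and protein kinase A. Many encode transcription factors of the AP-1, EGR, KLF and NR4A families, and others encode phosphatases, kinase inhibitors and RNA-binding proteins that end the response. Their transcripts are short-lived, and in the kidney they are known as early responders to ischaemia, to tubular injury and to the handling of fresh tissue.

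The genotype labels and the tissue were checked first. A1cf stood at 45.2 to 65.7 CPM (CPM, counts scaled to a common library total with TMM factors) in the WT libraries and at 2.95 to 6.11 CPM in the A1cf KO libraries. Total counts per library ran from 26671705 to 52899139. Summed markers of the proximal tubule, the main reabsorbing segment of the kidney, were 39995 to 55393 CPM in WT and 41533 to 58313 CPM in A1cf KO. These sums rest largely on 1 gene, Kap, at 25471 to 36922 CPM in WT and 26327 to 41087 CPM in A1cf KO. Summed markers of the adrenal cortex, a neighbouring gland, reached at most 5.37 CPM, with Cyp11b2 at 0 counts in all 12 libraries. Most of this sum was Star, at 2.91 to 5.03 CPM.

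The promoters of the members that stood highest in 1 library, A1cf KO 584, relative to the others are shown first, since these are the members on which the library pattern below turns. Promoter entries in the RefSeq table (build GRCm38.p6) matched 29 of the 36 members, 1 of them (Cyr61, listed as Ccn1) through a synonym. Each sequence is the 250 bases before the RefSeq start, written 5′ to 3′ on the gene's strand. Capitals mark the searched motifs: TGACG (the first 5 letters of the cAMP response element, to which CREB and ATF factors bind), which reads CGTCA on the other strand, the CArG box (bound by SRF) and TATAAA. The windows are chr12:85473640-85473889 (+ strand) for Fos, chr7:19310046-19310295 (- strand) for Fosb, chr10:67537619-67537868 (+ strand) for Egr2, chr3:145649986-145650235 (- strand) for Cyr61, chr15:101266596-101266845 (+ strand) for Nr4a1 and chr8:84978749-84978998 (- strand) for Junb. Egr2 has 5 entries, and the one shown was picked for holding the most searched motifs, tied with 2 others. Its motifs are therefore no independent finding. Egr1, second by the same ratio, is not shown.
Fos: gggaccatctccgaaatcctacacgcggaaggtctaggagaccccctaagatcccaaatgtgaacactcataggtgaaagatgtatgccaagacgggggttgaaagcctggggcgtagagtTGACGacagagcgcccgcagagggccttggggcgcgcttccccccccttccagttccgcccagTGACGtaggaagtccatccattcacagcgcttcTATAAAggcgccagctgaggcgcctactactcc
Fosb: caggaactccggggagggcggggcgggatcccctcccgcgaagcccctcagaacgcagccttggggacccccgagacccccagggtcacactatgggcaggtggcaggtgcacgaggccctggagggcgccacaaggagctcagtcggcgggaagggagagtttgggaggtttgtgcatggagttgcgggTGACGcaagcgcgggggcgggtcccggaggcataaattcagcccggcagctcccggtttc
Egr2: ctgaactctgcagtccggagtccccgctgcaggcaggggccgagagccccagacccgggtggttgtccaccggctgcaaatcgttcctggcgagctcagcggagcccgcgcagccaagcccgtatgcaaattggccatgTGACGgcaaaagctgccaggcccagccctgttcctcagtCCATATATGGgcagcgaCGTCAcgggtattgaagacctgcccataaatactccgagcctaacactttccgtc
Cyr61: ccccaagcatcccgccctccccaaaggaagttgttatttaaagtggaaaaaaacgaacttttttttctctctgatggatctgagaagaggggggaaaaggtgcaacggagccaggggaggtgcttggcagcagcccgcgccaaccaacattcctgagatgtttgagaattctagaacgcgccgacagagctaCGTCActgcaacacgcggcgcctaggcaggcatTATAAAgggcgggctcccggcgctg
Nr4a1: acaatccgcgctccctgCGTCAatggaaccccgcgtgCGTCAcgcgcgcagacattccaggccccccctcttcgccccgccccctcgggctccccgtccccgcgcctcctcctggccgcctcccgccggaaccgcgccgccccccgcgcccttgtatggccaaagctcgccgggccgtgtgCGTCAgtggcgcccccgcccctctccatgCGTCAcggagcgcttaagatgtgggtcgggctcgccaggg
Junb: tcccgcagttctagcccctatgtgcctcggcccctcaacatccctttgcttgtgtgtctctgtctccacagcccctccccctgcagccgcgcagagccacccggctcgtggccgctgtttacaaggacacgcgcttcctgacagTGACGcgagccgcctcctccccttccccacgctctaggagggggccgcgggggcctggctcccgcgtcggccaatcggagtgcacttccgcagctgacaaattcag

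In Fos, TGACG lay at positions -129 to -125 and -66 to -62 and TATAAA at -33 to -28, where -1 is the last base before the start. In Egr2 a CArG box lay at -72 to -63 between TGACG at -111 to -107 and CGTCA at -55 to -51. Nr4a1 held CGTCA at 4 places. Of the 29 members with a promoter, 17 (58.6%) held TGACG on either strand from 250 bases before to 50 after a start, against 23.05% of all 27025 genes in the table. The full element TGACGTCA was found in 4 members (13.8%, against 2.03% of all genes), namely Btg2, Dusp1, Errfi1 and Maff, and each full element also contains TGACG. The CArG box was found in 3 members (10.3% against 1.81%): Dusp5, Egr2 and Zfp36. TATAAA was found in 7 members (24.1% against 15.67%) and the AP-1 site TGAGTCA in 1, Csrnp1 (3.4% against 5.95%). A gene counted once if any of its entries held the motif, and these matches describe letters in a window and no binding.

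Between genotypes, 0 of the 35 tested members passed the threshold (adjusted p under 0.05, edgeR quasi-likelihood test with Benjamini-Hochberg adjustment over all 16910 genes). Of all tested genes, 0.0118% were called higher and 0.0355% lower in A1cf KO. The smallest adjusted p of a member was 0.176 (Atf3) and the largest 0.961 (Zfp36). At an unadjusted p under 0.05 there were 8 members, all with higher estimates in A1cf KO (Atf3, Nr4a2, Fosb, Ier5, Egr2, Nr4a1, Myc and Klf6), where 5.07% of all genes were higher and 5.28% lower. When each library was left out, this number ran from 3 without WT 601 to 14 without A1cf KO 602, in either direction. Of all genes, 9.56% and 11.39% then had an unadjusted p under 0.05 by edgeR. The DESeq2 Wald test called 1 member higher, Atf3 (0.523% of the genes it tested were called higher and 0.486% lower), and limma-voom and the robust form of the edgeR fit called 0. Over 22 settings other than the DESeq2 Wald test, the fit with all libraries included, 0 members passed, while between 0.00584% and 0.0651% of all genes were called higher and between 0.0172% and 0.0769% lower.

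The estimates were nevertheless mostly positive. The log2 fold change of A1cf KO relative to WT was above 0 for 33 of 35 members, with a median of 0.40, while it was above 0 for 49.2% of all tested genes, with a median of -0.003. The exceptions were Klf10 (-0.24) and Gadd45b (-0.073). In no member were the 2 genotypes apart, since the WT and A1cf KO libraries overlapped in all 35 (0.319% of all tested genes did not overlap with A1cf KO higher, and 0.52% with A1cf KO lower). The highest of the 12 libraries was an A1cf KO library for 32 members, of which 22 were in A1cf KO 584, and the lowest was a WT library for 30. Without A1cf KO 584 the median was 0.17 with 26 of 35 positive, and without WT 573 it was 0.53.

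**Figure D1:**
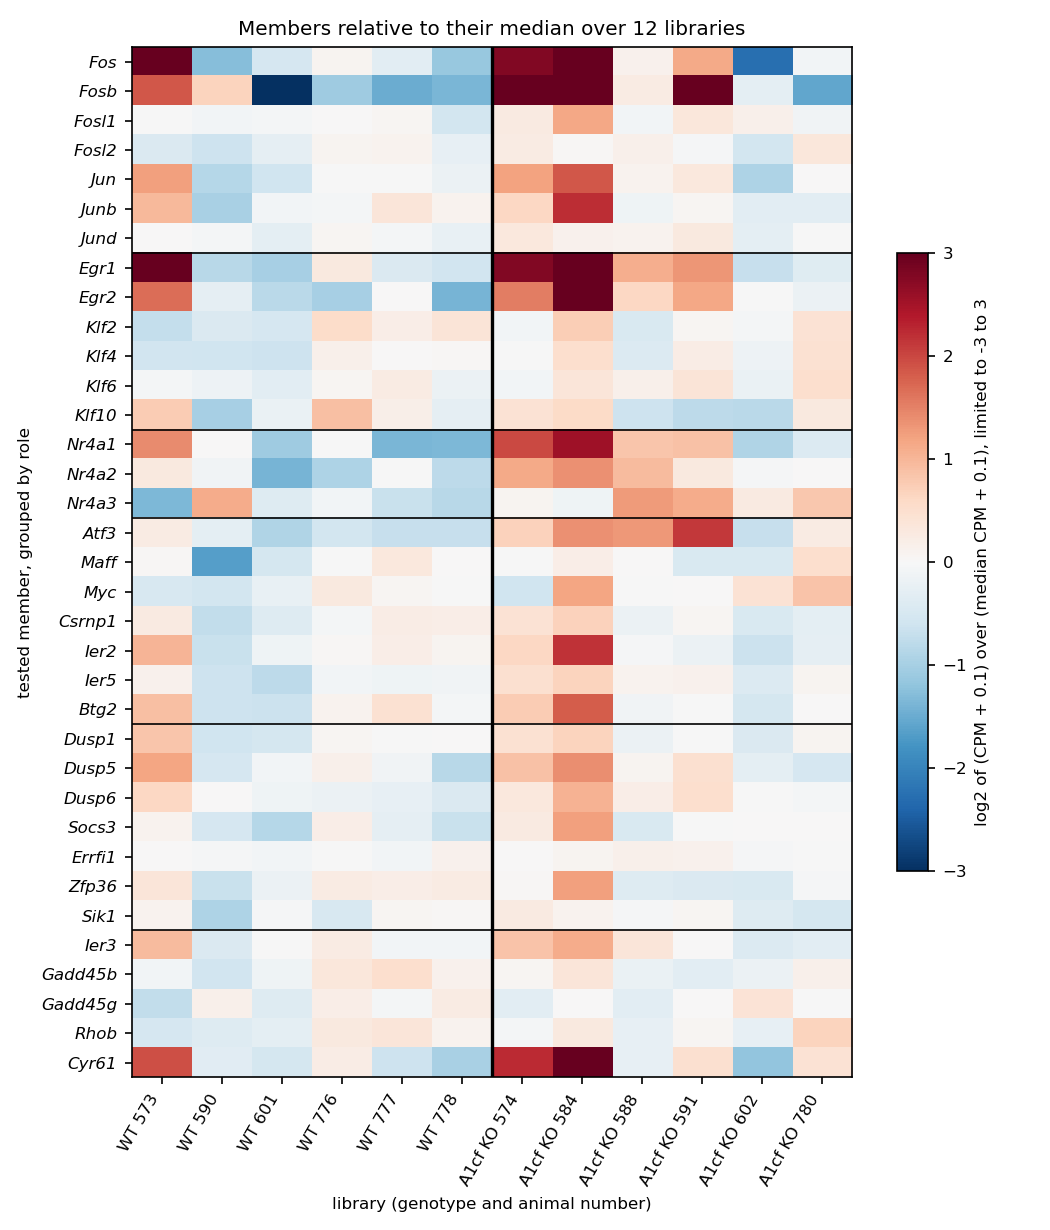
Level of each of the 35 tested members (rows, grouped by role) in the 12 libraries (columns, WT left and A1cf KO right of the line), as the log2 ratio of CPM + 0.1 to the member's median + 0.1, with colours limited to -3 and 3. The column of A1cf KO 584 is the reddest, and WT 573 and A1cf KO 574 are red for many of the same rows.

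The levels of the members spanned a wide range. Per kilobase of counted exon, the mean level over 12 libraries ran from 0.295 CPM (Egr2) to 219 CPM (Errfi1), with a median of 6.70 CPM. There were 12 members above 10 and 5 below 1 CPM per kilobase, the latter being Egr2, Nr4a2, Nr4a3, Fosl1 and Socs3. Egr3, an EGR family factor gene, was not tested, with 0 to 8 counts per library and its highest count in A1cf KO 584. Reads were counted without regard to strand, and 2 members overlap another gene: Jun shares 232 exon bases with Junos and Jund 543 with Gm11175, so their values may include reads of those genes.

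**Figure D2:**
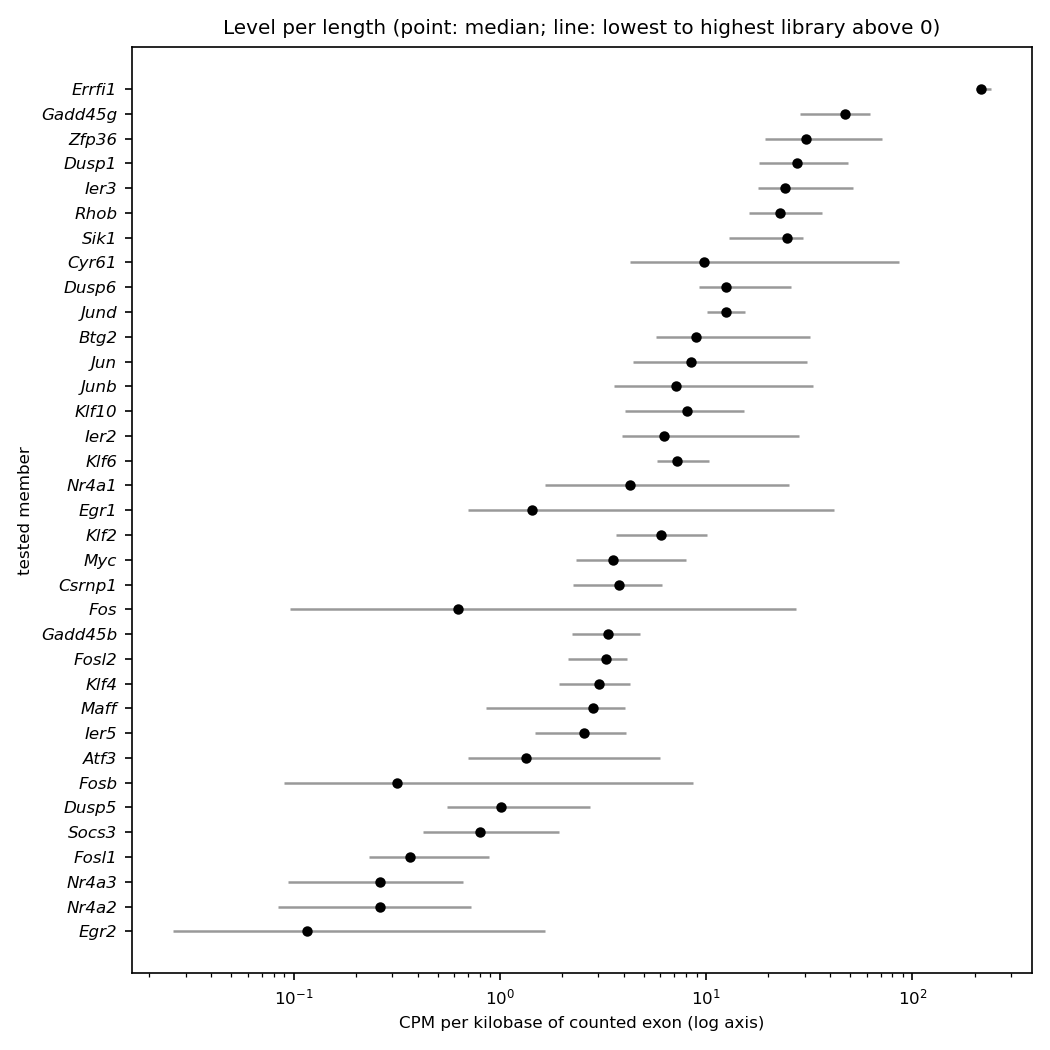
Level of each tested member per kilobase of counted exon, on a log axis, with points at the median of 12 libraries and lines from the lowest library above 0 to the highest, ordered by the mean. Errfi1 is far above the rest with a short line, whereas the lines of Fos, Fosb, Egr2 and Egr1 are long.

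AP-1 is a dimer of FOS and JUN family proteins. Values in every library are given in the order 573, 590, 601, 776, 777, 778 for WT and 574, 584, 588, 591, 602, 780 for A1cf KO. Fos (chr12:85473890-85477273, + strand, mm10) stood at 16.9, 0.543, 1.00, 1.55, 1.15 and 0.618 CPM in WT and at 10.7, 64.0, 1.63, 3.34, 0.225 and 1.39 CPM in A1cf KO. Thus 1 WT and 2 A1cf KO kidneys were high, the other 9 lay at or under 3.34 CPM, and both the highest and the lowest value came from A1cf KO. Between genotypes this gave a log2 fold change of 1.87 ± 1.14 (SE, n = 6 each, edgeR adjusted p = 0.595), and -0.059 without A1cf KO 584 and 3.84 without WT 573.

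Fosb (chr7:19302721-19310045, - strand), which encodes a FOS paralogue, stood at 4.62, 1.94, 0, 0.516, 0.358 and 0.398 CPM in WT and at 10.2, 32.4, 1.42, 17.9, 0.956 and 0.339 CPM in A1cf KO. The 3 highest libraries were all A1cf KO, with 591 in second place in this gene, and the other 3 A1cf KO libraries lay within the WT range. Its log2 fold change was 2.97 ± 1.03 (SE, edgeR adjusted p = 0.347), the largest among the members, with 2.22 without A1cf KO 584 and 3.99 without WT 573.

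The 5 other AP-1 genes varied less. Jun ran from 14.8 to 63.6 CPM in WT (median 25.4) and from 14.2 to 97.9 CPM in A1cf KO (median 31.5). Junb ran from 6.57 to 25.9 CPM in WT (median 13.3) and from 10.4 to 60.6 CPM in A1cf KO, where the median of 12.7 was below that of WT although the log2 fold change was 0.53 ± 0.43 (edgeR adjusted p = 0.705). For both genes WT 573, A1cf KO 574 and A1cf KO 584 were the 3 highest libraries. Fosl1 stayed between 0.398 and 1.51 CPM, and Fosl2 (20.6 to 40.1 CPM) and Jund (29.1 to 44.6 CPM) varied by less. The 7 AP-1 log2 fold changes were all positive, with a median of 0.53, and 0.20 with 5 positive without A1cf KO 584.

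The EGR and KLF genes encode zinc finger transcription factors. Egr1 stood at 65.8, 3.57, 3.14, 7.88, 4.69 and 4.28 CPM in WT and at 44.9, 187, 13.7, 16.1, 3.94 and 4.94 CPM in A1cf KO. The same 3 libraries as for Fos were highest, 588 and 591 came next, and A1cf KO 602 and 780 lay among the WT values. The log2 fold change was 1.59 ± 0.98 (SE, edgeR adjusted p = 0.599), with 0.17 without A1cf KO 584 and 3.29 without WT 573.

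Egr2 stood at 1.49, 0.310, 0.182, 0.147, 0.398 and 0.0883 CPM in WT and at 1.35, 5.65, 0.667, 1.02, 0.394 and 0.339 CPM in A1cf KO. Its 5 highest libraries came in the same order as those of Egr1, at a level where a library holds few reads. Its log2 fold change was 1.78 ± 0.75 (SE, edgeR adjusted p = 0.428), with 0.77 without A1cf KO 584 and 2.74 without WT 573. The KLF genes were steadier: Klf2 ran from 6.79 to 18.6 CPM, Klf4 from 5.90 to 13 CPM, Klf6 from 24.5 to 43.3 CPM and Klf10 from 12.3 to 46.3 CPM over all libraries. Klf10, a TGF-beta-inducible factor gene, had its highest value in WT 776 and the lowest log2 fold change of all members, -0.24 ± 0.33 (edgeR adjusted p = 0.842).

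**Figure D3:**
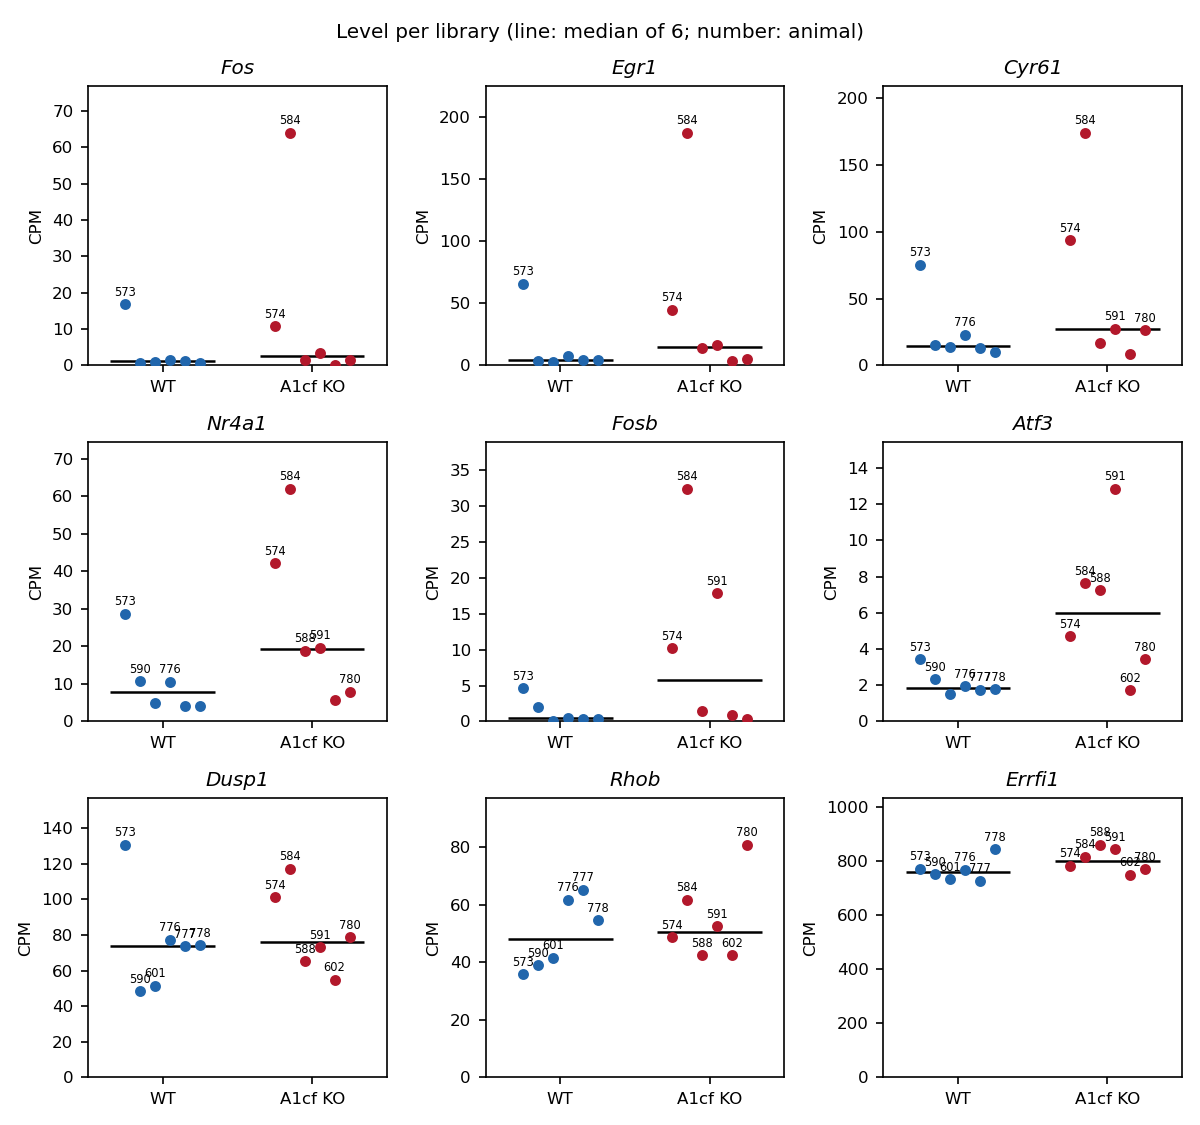
CPM per library (points, with animal numbers beside the higher ones) for 9 members in WT (blue) and A1cf KO (red), with lines at the median of 6 libraries and each vertical axis from 0. In Fos, Egr1 and Cyr61 single libraries of both genotypes (573, 574 and 584) stand above the rest, whereas Errfi1 varies little.

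NR4A genes encode orphan nuclear receptors that act without a known natural ligand. Nr4a1 (chr15:101266846-101274792, + strand) stood at 28.7, 10.6, 5.01, 10.6, 4.08 and 4.11 CPM in WT and at 42.2, 62.1, 18.9, 19.7, 5.60 and 7.92 CPM in A1cf KO. The libraries 584, 574 and 573 were again highest, in that order, and the other 4 A1cf KO libraries lay within the WT range. For Nr4a1 the log2 fold change was 1.31 ± 0.59 (SE, edgeR adjusted p = 0.467), with 0.85 without A1cf KO 584 and 1.93 without WT 573.

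Nr4a2 stood at 1.34, 0.989, 0.342, 0.516, 1.05 and 0.574 CPM in WT and at 2.47, 2.93, 2.15, 1.33, 1.04 and 1.08 CPM in A1cf KO. Here 3 A1cf KO libraries lay above every WT library and the other 3 within the WT range. The log2 fold change was 1.18 ± 0.35 (SE, edgeR adjusted p = 0.29), and leaving out 1 library moved it only between 1.00 and 1.38. Nr4a3 ran from 0.563 to 3.53 CPM in WT (median 1.07) and from 1.43 to 3.96 CPM in A1cf KO (median 2.38). It did not share the pattern of its paralogues, since WT 573 was its lowest library and A1cf KO 588 and WT 590 were the 2 highest.

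Among the other transcription regulators, Atf3 (chr1:191170296-191218039, - strand), which encodes a stress-inducible CREB family factor, had the smallest p of all members. It stood at 3.45, 2.33, 1.504, 1.95, 1.75 and 1.77 CPM in WT and at 4.71, 7.62, 7.26, 12.9, 1.74 and 3.45 CPM in A1cf KO. The highest library was 591 and not 584, 4 A1cf KO libraries were above every WT library, 780 was level with the highest WT library and 602 was among the lowest. The log2 fold change was 1.56 ± 0.38 (SE, n = 6 each), with an edgeR adjusted p of 0.176. It was 1.502 without A1cf KO 584 and ran from 1.22 to 1.76 when each library was left out, with edgeR adjusted p from 0.0851 to 0.389. The DESeq2 Wald test gave 1.56 with an adjusted p of 0.0324, and limma-voom 1.41 with 0.304.

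Ier5, a gene of the immediate early response family, stood at 9.16, 5.43, 4.83, 7.88, 7.68 and 7.82 CPM in WT and at 11.8, 13.4, 9.01, 9.18, 6.36 and 8.94 CPM in A1cf KO. Its highest values were in 584 and 574, 591 was just above the highest WT library and the rest overlapped with WT (log2 fold change 0.46 ± 0.18 SE, edgeR adjusted p = 0.409). Myc, a growth-promoting factor gene, ran from 6.61 to 11.97 CPM in WT (median 8.99) and from 6.45 to 22.1 CPM in A1cf KO (median 11.5), with A1cf KO 574 lowest of all and 584 highest. Ier2 (5.93 to 43.1 CPM over all libraries) and the antiproliferative gene Btg2 (15.7 to 87.2 CPM) were highest in 584, and their log2 fold changes of 0.46 and 0.43 were -0.22 and -0.038 without it. Csrnp1 (6.50 to 17.5 CPM) and Maff (1.82 to 8.53 CPM), a small MAF factor gene, had log2 fold changes of 0.14 and 0.19. The 7 genes of this role had a median of 0.46, and 0.15 with 4 positive without A1cf KO 584.

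The genes that end signalling include the most abundant members. Errfi1, which encodes an inhibitor of the EGF receptor, stood at 772, 752, 733, 768, 727 and 845 CPM in WT and at 783, 816, 861, 844, 750 and 771 CPM in A1cf KO. Its libraries overlapped throughout and none stood out, and the log2 fold change was 0.070 ± 0.058 (SE, edgeR adjusted p = 0.713).

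Dusp1, a MAP kinase phosphatase gene, stood at 131, 48.5, 51.5, 77.4, 73.6 and 74.3 CPM in WT and at 101.1, 117, 65.2, 73.1, 55.0 and 78.8 CPM in A1cf KO. Here WT 573 was the highest library, ahead of 584 and 574, and WT 590 and 601 were the lowest (log2 fold change 0.10 ± 0.23 SE, edgeR adjusted p = 0.904). Zfp36, which encodes a protein that marks AU-rich transcripts for decay, stood at 69.7, 34.4, 48.4, 65.2, 62.8 and 65.0 CPM in WT and at 56.2, 128, 41.5, 40.3, 39.6 and 52.8 CPM in A1cf KO. Only A1cf KO 584 exceeded the highest WT library, and the other 5 A1cf KO libraries lay under the WT median of 63.9 CPM. Its log2 fold change was accordingly 0.053 with and -0.32 without 584.

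Sik1, a salt-inducible kinase gene, stood at 120, 58.1, 108, 79.8, 115 and 113 CPM in WT and at 133, 119, 109, 115, 84.8 and 77.2 CPM in A1cf KO. WT 590 was lowest and A1cf KO 574 highest, and the genotypes overlapped throughout. The phosphatase genes Dusp5 (1.37 to 6.80 CPM) and Dusp6 (25.9 to 72.5 CPM) and the JAK-STAT inhibitor gene Socs3 (1.23 to 5.60 CPM) were all highest in 584, with log2 fold changes of 0.39, 0.40 and 0.60. The 7 feedback genes had a median of 0.10, all positive, and 0.068 with 5 positive without A1cf KO 584.

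Among the remaining effectors, Cyr61 (chr3:145646976-145649981, - strand), which encodes a secreted matrix protein, stood at 75.4, 15.5, 13.6, 22.9, 12.7 and 10.05 CPM in WT and at 93.7, 174, 16.5, 27.5, 8.66 and 26.5 CPM in A1cf KO. It repeated the 3 high libraries of Fos and Egr1, and A1cf KO 602 was the lowest of the 12. For Cyr61 the log2 fold change was 1.21 ± 0.68 (SE, edgeR adjusted p = 0.557), with 0.47 without A1cf KO 584 and 1.96 without WT 573.

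Gadd45g, a growth arrest and DNA damage-inducible gene, stood at 33.3, 60.9, 42.5, 63.8, 52.7 and 65.3 CPM in WT and at 44.5, 55.2, 44.0, 55.3, 72.8 and 55.1 CPM in A1cf KO. It ran against the pattern, with WT 573 lowest and 602 highest. Rhob, a small GTPase gene, stood at 35.98, 38.9, 41.6, 61.7, 65.2 and 54.7 CPM in WT and at 48.8, 61.8, 42.6, 52.6, 42.4 and 80.9 CPM in A1cf KO. Rhob was lowest in WT 573 and highest in A1cf KO 780, and among the WT libraries 776, 777 and 778 were the highest. Ier3, an apoptosis regulator gene, ran from 20.2 to 58.5 CPM with 584, 573 and 574 highest, and Gadd45b ran from 2.83 to 6.04 CPM with WT 777 highest. The log2 fold changes were 0.038 for Gadd45g, 0.14 for Rhob, 0.22 for Ier3 and -0.073 for Gadd45b.

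**Figure D4:**
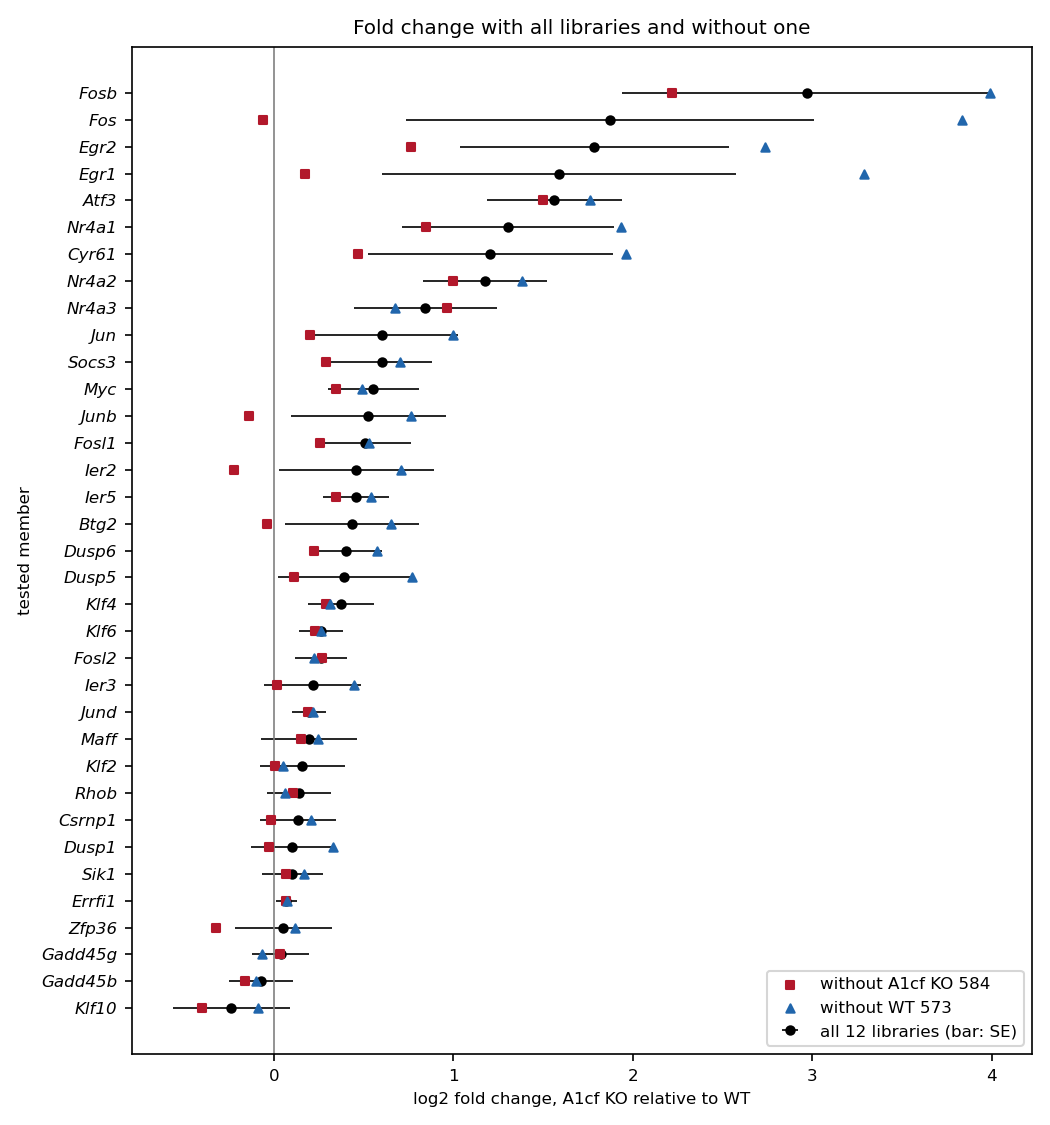
Log2 fold change of each tested member, A1cf KO relative to WT, with all 12 libraries (black points, bars of 1 SE), without A1cf KO 584 (red squares) and without WT 573 (blue triangles). For Fos the point moves from 1.87 to -0.059 or 3.84, while Atf3 and Nr4a2 move little.

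Most members were highest in the same library. A1cf KO 584 was the highest of the 12 libraries for 22 of 35 members (62.9%), against 11.02% of all tested genes, and no other library was highest for more than 4. Its members' mean was 4.87 log2 CPM, followed by A1cf KO 574 with 4.16 and WT 573 with 4.02, and the lowest mean was 2.90 in WT 601. Among 13706 genes with a mean of at least 1 CPM, ranked by the level in A1cf KO 584 over the median of the other 11 libraries, the first 5 were all members: Fos (46.1 times), Egr1 (37.9), Fosb (33.9), Egr2 (14.4) and Cyr61 (10.5). Of the 34 members in that ranking, 11 were among the first 20 genes and 18 among the first 100. The library was picked for its members, so these ranks describe it and test nothing.

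**Figure D5:**
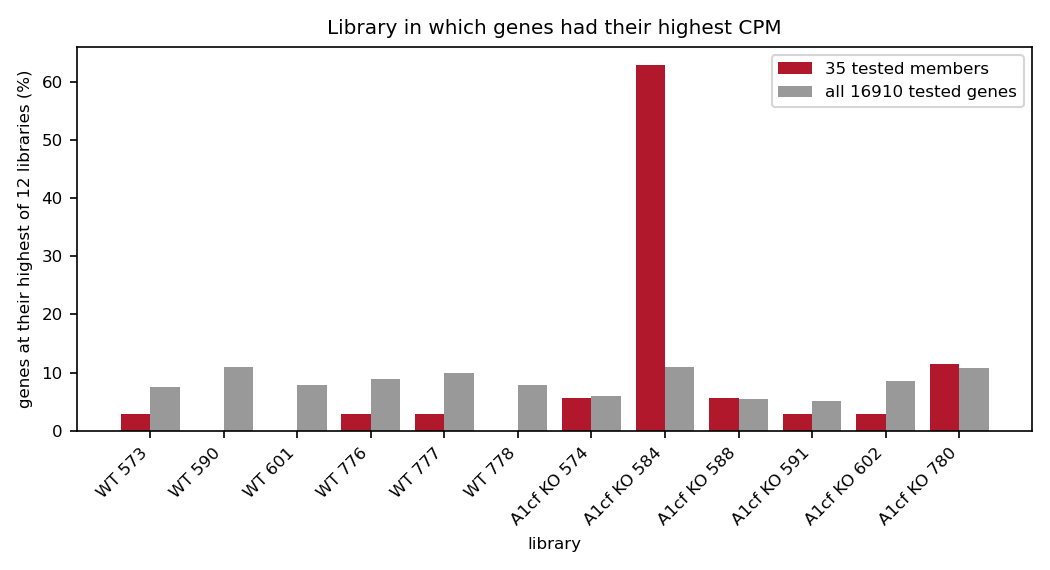
Share of genes with their highest CPM in each of the 12 libraries, for the 35 tested members (red) and for all 16910 tested genes (grey). The member bar of A1cf KO 584 is at 62.9% against 11.02% of all genes, and WT 590, WT 601 and WT 778 have no member.

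Some members shared their highest libraries across the genotypes. For 14 of 35 members (40%) the 3 highest libraries were WT 573, A1cf KO 574 and A1cf KO 584, which held for 378 (2.24%) of all tested genes. These 14 were Fos, Jun, Junb, Egr1, Egr2, Nr4a1, Csrnp1, Ier2, Btg2, Dusp1, Dusp5, Sik1, Ier3 and Cyr61. The 3 libraries are those with the highest means of the members, so these shares describe them and test nothing. For Egr1 the lowest of the 3 stood at 44.9 CPM and the highest of the other 9 at 16.1 CPM, and for Sik1 the gap was only between 119 and 115 CPM. When these 3 libraries were left out, a choice made after their values were seen, 27 of 35 log2 fold changes were positive with a median of 0.25. The value for Egr1 was then 1.07 (edgeR adjusted p = 0.534). Of the members, 0 passed the threshold, where 0.0117% of all genes were called higher and 0.0176% lower. At an unadjusted p under 0.05 by edgeR there were then 8 members, all with higher estimates in A1cf KO. The 8 were Atf3, Dusp6, Egr1, Egr2, Fosb, Nr4a1, Nr4a2 and Nr4a3, while 8.38% of all genes passed in either direction.

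Within 1 genotype the members varied more than other genes. The median SD of log2 CPM (prior count 2) over the 6 libraries was 0.470 for the members and 0.201 for all tested genes in WT, and 0.592 and 0.190 in A1cf KO. In WT 14 members, and in A1cf KO 18, lay above the 90th percentile of all genes. Fos had an SD of 1.78 in WT and 2.71 in A1cf KO. Errfi1 stood at the other end, with 0.078 in both genotypes, at percentiles 8.5 and 11.

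Some other measurements were highest or lowest in A1cf KO 584. In bulk tissue, fewer cells of a type and less RNA per cell cannot be told apart. Summed red blood cell markers were highest in this library at 458 CPM, against 251 to 432 CPM in WT and 161 to 458 CPM in A1cf KO, and 4 of 6 tested markers were highest there. Summed lymphocyte markers were also highest there at 10.1 CPM, against 4.69 to 8.14 CPM in WT and 4.89 to 10.1 CPM in A1cf KO, with 4 of 9 markers highest there. Of all tested genes, 11.02% were highest in A1cf KO 584. In WT 573 and A1cf KO 574, the red blood cell sums were 260 and 247 CPM and the lymphocyte sums 7.88 and 8.73 CPM. Summed loop of Henle markers were lowest in A1cf KO 584 at 3960 CPM. These ran from 5235 to 7473 CPM in WT and from 3960 to 4994 CPM in A1cf KO, so that the sums did not overlap between genotypes. The part of these cells in the members' levels was not tested.

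The summed proximal tubule markers in A1cf KO 584 were 41533 CPM, the lowest of the A1cf KO libraries and within the WT range, and the summed adrenal cortex markers were 3.26 CPM, the lowest of the 12. For the other lists, 584 lay inside the range of the other libraries. Macrophage markers summed to 131 to 194 CPM in WT, 153 to 213 CPM in A1cf KO and 169 CPM in 584. Neutrophil markers summed to 2.08 to 5.88, 4.19 to 7.31 and 4.66 CPM, endothelial markers to 290 to 571, 347 to 562 and 479 CPM, and smooth muscle and pericyte markers to 172 to 268, 215 to 332 and 271 CPM, each in that order. Fat markers (54.7 to 357 CPM in WT and 43.8 to 515 CPM in A1cf KO) and urothelium markers (4.52 to 75.2 and 5.36 to 22.0 CPM) varied widely between libraries of both genotypes. Apart from Cyp11b2, no marker of these lists was at 0 counts in all libraries. The edgeR test called 0 markers of any list. At an unadjusted p under 0.05 by edgeR, 5.28% of all tested genes were lower and 5.07% higher. Lower were 10 of 10 tested loop of Henle markers, 1 of 6 red blood cell markers (Slc4a1) and 1 of 12 proximal tubule markers. Higher by the same measure were 3 of 11 macrophage, 2 of 9 smooth muscle and pericyte and 1 of 12 proximal tubule markers. The haemoglobin genes Hba-a1, Hba-a2, Hbb-bs and Hbb-bt did not pass it (edgeR unadjusted p from 0.243 to 0.527). The DESeq2 Wald test called the macrophage marker Ctss higher and 4 loop of Henle markers lower. Of all genes it tested, 0.523% were called higher and 0.486% lower.

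Other genes of the same response behaved less uniformly. Of 53 further primary response genes, 46 were tested, 0 were called by edgeR (9 higher and 1 lower at an unadjusted p under 0.05), 36 were positive and the median log2 fold change was 0.19. Of all tested genes, 5.07% were higher and 5.28% lower at that unadjusted p. The DESeq2 Wald test called 2 of the 46 genes higher, Ccl2 and Hbegf, against 0.523% of all genes it tested. Hbegf, which encodes an EGF receptor ligand, had means of 15.99 CPM in WT and of 23.3 CPM in the A1cf KO libraries (log2 fold change 0.54, edgeR adjusted p = 0.149). The chemokine gene Ccl2 averaged 0.155 and 0.492 CPM (1.56, edgeR adjusted p = 0.236). Of the 46 genes, 17 were highest in A1cf KO 584, as were 11.02% of all tested genes. The chemokine gene Cxcl1 led them with 9.87 CPM there, 5.78 in WT 573 and 3.06 in A1cf KO 574.

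As a group, genes of the upstream pathway did not share the pattern. Of 32 kinases, receptors and factors that act before the immediate early genes, 0 were called by edgeR (3 higher and 1 lower at an unadjusted p under 0.05), 22 were positive, the median log2 fold change was 0.040 and 4 were highest in A1cf KO 584. Of all tested genes, 5.07% were higher and 5.28% lower at that unadjusted p, and 11.02% were highest in A1cf KO 584. Srf, also counted among the further primary response genes, was among the 3 higher genes (log2 fold change 0.29, edgeR adjusted p = 0.404). Its highest library was A1cf KO 584 with 30.7 CPM. The smallest p of the 32 was that of Egf, the EGF precursor gene and also a loop of Henle marker. Egf had means of 1074 CPM in WT and of 749 CPM in the A1cf KO libraries (log2 fold change -0.52, edgeR adjusted p = 0.176). The DESeq2 Wald test called Egf lower, against 0.486% of all genes it tested.

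Stress lists gave the following values. Of 16 heat shock genes, 15 were positive with a median of 0.17, 6 were higher at an unadjusted p under 0.05 and none was highest in A1cf KO 584. Hspa1a, an inducible chaperone gene, had means of 8.91 CPM in WT and of 18.2 CPM in the A1cf KO libraries (edgeR adjusted p = 0.43), where 591 alone stood at 52.4 CPM and the other 5 at 8.67 to 17.5 CPM. The 14 hypoxia genes had a median of 0.039 and the 10 tested genes of the integrated stress response one of -0.12. The 11 tubular injury markers had a median of -0.008, and the injury marker Krt20 stood at 2.74 CPM in A1cf KO 584, but its highest library was WT 777 with 3.52 CPM. The edgeR fit, the DESeq2 Wald test, limma-voom and the robust edgeR fit each called 0 genes of these 4 lists. At an unadjusted p under 0.05 by edgeR, 1 hypoxia gene was higher and 2 lower, 0 integrated stress response genes passed and 1 injury marker was higher. Of all tested genes, 5.07% were higher and 5.28% lower at that p.

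The labels give no batch, but the animal numbers fall into 2 series, 573 to 602 (3 WT and 5 A1cf KO) and 776 to 780 (3 WT and 1 A1cf KO). A comparison of the series, with genotype in the same edgeR fit, was added after the data were seen. It called 1 of 35 members higher in 776 to 780, Rhob, and 0 lower, where 2.1% of all genes were called higher and 0.798% lower. Rhob averaged 45.6 CPM in the 8 libraries of the lower series and 65.7 CPM in the 4 of the higher (log2 fold change 0.66 ± 0.098 SE, edgeR adjusted p = 0.0019), with 584 the only library of the lower series above the lowest of the higher. Klf4 (0.57, edgeR adjusted p = 0.0533) and Klf2 (0.74, edgeR adjusted p = 0.0618) lay just outside the threshold. Of the 35 log2 fold changes between the series, 14 were positive, with a median of -0.105 (all genes: 48.6% and -0.006). The largest in size were negative: Fosb (-3.24), Fos (-2.84) and Egr1 (-2.53). Their edgeR adjusted p were 0.188, 0.289 and 0.254. WT 573, A1cf KO 574 and A1cf KO 584, the libraries with the highest means of the members, were all in 573 to 602. Without A1cf KO 584 the fit called 4 members, Klf2, Klf4, Myc and Rhob, and without A1cf KO 588 it called 2, Klf4 and Rhob. Of all genes, 2.61% were then called higher and 1.47% lower without A1cf KO 584, and 1.88% and 0.581% without A1cf KO 588. Klf2, Klf4 and Rhob were called by the DESeq2 Wald test (4.16% of all genes higher, 2.56% lower) and by edgeR with no filter on low counts (1.41% and 0.683%). Rhob was called together with Klf4 with a stricter filter (2.94% and 1.1%) and with the robust fit (2.15% and 0.863%), and together with Klf2 with limma-voom (2.09% and 0.627%). For genotype, 0 members passed with the series in the fit or within 573 to 602. The smallest adjusted p of a member was then that of Klf4, whose log2 fold change of 0.37 became 0.59 with the series in the fit (edgeR adjusted p = 0.111) and 0.67 within 573 to 602 (edgeR adjusted p = 0.519). Atf3 gave 1.34 (edgeR adjusted p = 0.191) and 1.49 (edgeR adjusted p = 0.601). With the series in the fit, the values of Egr1, Fos and Nr4a1 were 0.86, 1.18 and 0.85, and those of Rhob and Klf2 were 0.37 and 0.47, each over 1.5 times away from the value without it.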

How the data were processed

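RNA of 12 whole kidneys (6 WT, 6 A1cf KO) was sequenced. The authors deposited 1 table of read counts per gene name. Per the file headers, these counts came from featureCounts 1.5.0-p2 over exons with the GENCODE M8 annotation, from merged alignments with duplicates marked but not excluded, and without a strand option. The submitters' processing notes name STAR, DESeq2 and the mm10 build, without versions for the tools.

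Counts were filtered with filterByExpr by genotype, scaled by TMM and compared by genotype in the quasi-likelihood fit of edgeR 4.0.16 (R 4.3.3), without a covariate and with Benjamini-Hochberg adjustment over 16910 genes at 0.05. CPM used TMM-scaled library sizes. Whether libraries come from separate litters is not given, and the p-values measure the spread between these animals. Alternatives were DESeq2 1.42.0, limma-voom (limma 3.58.1), the robust edgeR fit, 2 other scalings, 2 other filters, the animal number series, and leaving out each library.

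Values in every library are given for the 6 members with the smallest p, the 6 with the highest mean CPM and those whose highest library was over 5 times the median of the other 11. From other lists at most 4 genes were named, by p and by level in A1cf KO 584, and up to 15 further genes by the latter. Promoters were chosen by the same ratio, as the first 6 matched members in that order. For a gene with several entries, the one with the most searched motifs was shown. The members and lists were chosen with earlier results of these data known.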

Additional observations from a re-analysis of the deposited data

Results flagged for a closer look

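In 72 groups of 6 libraries (35 tested members and their mean, in 2 genotypes), 5 held a library whose gap to the next, on log2 CPM, was larger relative to the group's whole range than Dixon's critical value. Chance flags about 1 in 20 groups. Fos in WT 573 stood at 16.9 CPM, with the other WT libraries at 0.543 to 1.55 CPM. Egr1 in WT 573 stood at 65.8 CPM, with the others at 3.14 to 7.88 CPM. Zfp36 in A1cf KO 584 stood at 128 CPM, with the other A1cf KO libraries at 39.6 to 56.2 CPM. Fosl1, the gene of a FOS-related AP-1 subunit, stood at 1.51 CPM in A1cf KO 584, with the others at 0.576 to 0.821 CPM. Fosl1 was also low in WT 778 at 0.397 CPM, with the others at 0.582 to 0.656 CPM. On linear CPM the same measure was passed in 21 of 70 groups. There the 1 in 20 does not apply, since the critical value assumes normally distributed values. The groups also share libraries and are not independent. WT 573 was the highest library in 10 of the 21 and A1cf KO 584 in 9, among them Fos and Egr1 in both libraries.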

How the results depend on the processing

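Between genotypes, the number of members past the threshold was 0 in each direction under every setting tried except the DESeq2 Wald test, which called 1 higher (Atf3, adjusted p = 0.0324). Over 768 pairs of a member and a setting, 744 kept their direction and side of the threshold, and 23 in 12 members reversed. By other settings these were Zfp36 (-0.049 with limma-voom) and Gadd45b (0.10 with the series covariate and 0.21 within 573 to 602). Without WT 573, A1cf KO 574 and A1cf KO 584 they were Junb (-0.094), Klf2 (-0.072), Csrnp1 (-0.091), Ier2 (-0.19), Btg2 (-0.045) and Zfp36 (-0.33). The cause was not tested. Leaving out each library gave ranges of -0.059 to 3.84 for Fos, -0.14 to 0.77 for Junb, -0.017 to 0.23 for Csrnp1, -0.22 to 0.71 for Ier2, -0.038 to 0.66 for Btg2, -0.027 to 0.33 for Dusp1, -0.32 to 0.15 for Zfp36, -0.011 to 0.18 for Sik1, -0.18 to 0.037 for Gadd45b, -0.066 to 0.11 for Gadd45g and 0 to 0.24 for Rhob. The median log2 fold change ran from 0.17 to 0.53 and the number of positive members from 26 to 34. Between the animal number series the number called higher was 3 with no filter (Klf2, Klf4 and Rhob) and with DESeq2, 2 with the stricter filter, limma-voom and the robust fit, and 1 to 4 when each library was left out. Members under 1 CPM, such as Egr2 in WT, rest on few reads per library. The labels give no pairing of WT with A1cf KO animals, and no paired analysis was run.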

Other observations

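Some genes outside the members and the list of further primary response genes also stood high in A1cf KO 584. Their levels are set against the median of the other 11 libraries. In the ranking of 13706 genes with a mean of at least 1 CPM, Il1b, the gene of an inflammatory cytokine, came in place 6 with 3.76 CPM in 584, 2.39 in WT 573 and 2.22 in A1cf KO 574, against a median of 0.477. Its 3 highest libraries were the same as those of Fos and Egr1. Creb3l3, which encodes a membrane-bound CREB family factor, stood at 11.8 CPM there against a median of 2.71, and the vitamin D-degrading enzyme gene Cyp24a1 at 229 against 73.4 CPM, with WT 573 at 187 CPM. Phgdh, the first enzyme of serine synthesis, stood at 17.8 against 6.78 CPM. The asparagine synthetase gene Asns stood at 9.41 CPM there, only a little above WT 776 (8.99 CPM) and A1cf KO 780 (8.13 CPM). None of Il1b, Creb3l3, Cyp24a1 and Phgdh passed the threshold between genotypes (edgeR adjusted p from 0.755 to 0.952).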
